A study of Mus musculus with 232 samples.

Results

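Twf1, Dazap2 and Scpep1 were described across single mouse embryonic stem cells (ESCs) that differed in their miRNAs. They are 3 of the 42493 genes in the deposited tables, and all 3 were among the 11186 genes that averaged 5 counts or more per cell, which are the genes tested below for a ratio past 2-fold. They were chosen by their level in these same cells: among the genes lower after transfection of miR-294 into Dgcr8-/- cells they stood at the top of a list ordered by p. That difference is therefore given here as a description. The contrasts of WT and of let-7-transfected cells with the Dgcr8-/- cells share those control cells with it, and of the contrasts below only that of let-7-transfected with WT cells uses neither of its groups.

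The cells comprised 60 Dgcr8-/- ESCs mock-transfected without a mimic, 58 Dgcr8-/- ESCs transfected with a mimic of miR-294, 48 Dgcr8-/- ESCs transfected with a let-7 mimic, and 16 WT ESCs titled V6.5. All were grown in serum with LIF and the inhibitors PD0325901 and CHIR99021 (2i), the transfections used Dharmafect 1, and the cells were captured on a Fluidigm C1 circuit the day after. The let-7 mimic is named let-7i in the sample titles, let-7b in the series design and let-7c in the study. Of the 58 miR-294-transfected cells 3 are titled MIR_294 and the others miRNA294. Each condition came from a single circuit, and circuit, culture and condition cannot be told apart. In this design a condition is 1 sample however many cells it holds. No test between conditions was therefore possible, and an SD is the spread over cells. The authors had removed cells with few reads and a few mimic-transfected cells whose targets were not lower, so the cells had been selected on a related measure.

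Dgcr8 is the RNA-binding partner of Drosha, and without it most miRNAs are not cut from their primary transcripts. A miRNA pairs through its seed, bases 2 to 8 from its 5′ end, with sites mostly in 3′ untranslated regions (UTRs), and lowers the level or the translation of those mRNAs. The miR-290 family, which miR-294 belongs to, is abundant in ESCs and is known for promoting their rapid cell cycle, whereas let-7 accumulates as ESCs differentiate. Twf1 encodes twinfilin-1, which binds actin monomers and caps filament ends. Dazap2 encodes a small proline-rich protein first found through its binding to DAZ proteins. Scpep1 encodes retinoid-inducible serine carboxypeptidase, a relative of the lysosomal carboxypeptidase cathepsin A.

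The mature miRNAs are shown because the seed, in capitals, sets which sites they can pair with. The 3 let-7 names share a seed, and miR-294 shares its own with at least 4 other mouse miRNAs (sequences from RefSeq, GRCm38.p6).
miR-294-3p: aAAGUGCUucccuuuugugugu
let-7c-5p: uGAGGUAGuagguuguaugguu
let-7b-5p: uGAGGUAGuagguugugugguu
let-7i-5p: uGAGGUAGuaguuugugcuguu

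For each gene the longest 3′ UTR among its coding transcripts was searched on the transcript strand. The sites sought were the match to miR-294 bases 2 to 8 (AGCACTT, a 7mer-m8) and the match to bases 2 to 7 followed by A (GCACTTA, a 7mer-A1). Also sought were both together (AGCACTTA, an 8mer) and the match to bases 2 to 7 alone (GCACTT, a 6mer). A site was counted once, under the longest kind. Each of the 3 genes held 1 7mer-m8 and none held an 8mer. The sites are shown in windows of 30 bases, with the matched bases in capitals (GRCm38, Gencode M21, sequence on the strand of the gene).
Twf1, chr15:94579683-94579712, minus strand: ttttgaaaaatAGCACTTttcacttctatg
Dazap2, chr15:100619531-100619560, plus strand: cacataccttcAGCACTTctcacaatgtaa
Scpep1, chr11:88924369-88924398, minus strand: atgtaaatccaAGCACTTgagaggtagaag
Dazap2, chr15:100620659-100620688, plus strand: ctacactgtggtGCACTTAacttgtggatt

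The Twf1 site began 119 bases into a 3′ UTR of 1869 bases, in a gene on chromosome 15 from 94577951 to 94589889. The first Dazap2 site began 46 bases into a 3′ UTR of 1265 bases, in a gene on chromosome 15 from 100615349 to 100620761. Dazap2 was the only one of the 3 with a second site of 7 bases, the 7mer-A1 printed last, which began at base 1175. The Scpep1 site began at base 275 of a 3′ UTR of 642 bases, in a gene on chromosome 11 from 88924020 to 88955465. Dazap2 and Scpep1 also held 1 6mer each. No site of 6 bases or more for the let-7 seed (8mer CTACCTCA, 7mer-m8 CTACCTC, 7mer-A1 TACCTCA, 6mer TACCTC) was in the 3 UTRs. For comparison, 3719 of 21832 genes with a 3′ UTR (17.03%) held a miR-294 site of 7 bases or more, and 3128 (14.33%) a let-7 site of that length, in UTRs with a median of 906.5 bases. A match is a letter match and not a measured site.

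Counts per cell totalled 513521 to 3979274 with 6119 to 10877 genes counted. Normalized counts are counts divided by DESeq size factors, and they can be compared between cells but not between genes of different length. The 15 stem cell markers all had a median above 0 in Dgcr8-/-, WT and miR-294-transfected cells and 14 did in let-7-transfected cells, where their summed level was lower (median 3762 against 6716 in Dgcr8-/- cells, in counts scaled to a common total, CPM). None of the 11 fibroblast markers had a median above 0 in any condition. Dgcr8 itself was counted in 54 of 60 Dgcr8-/- cells (mean normalized count 51.5) and in all 16 WT cells (118). The whole transcript is counted, so reads outside the deleted part keep this from being a clean check of genotype. In 2 of the 50 cells with 2 sequencing runs, 1 WT and 1 let-7-transfected, the runs were unlike each other (chi-square per gene of 100.5 or more, against at most 6.25 in the other 48). In that WT cell Scpep1 stood at 0.694 CPM in the first run and 282 in the second. A further 4 pairs of cells, 3 of let-7-transfected and 1 of miR-294-transfected cells, had near-identical counts (correlation of at least 0.987, where the next pair had 0.715). All were kept in the values below, and for some contrasts folds without the cells of unlike runs, or with near-identical cells counted once, are also given.

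Twf1 had the highest counts of the 3 and the narrowest spread. Its normalized count in Dgcr8-/- cells ran from 874 to 4939 with a median of 2369. In miR-294-transfected cells it ran from 20.3 to 1610.1 with a median of 732, and all 58 lay below the median of the Dgcr8-/- cells. In 44 of the 58 it was below the lowest Dgcr8-/- cell, and in a pair of 1 cell from each condition the miR-294-transfected cell was the lower in 98.2% of pairs. The mean was 729 ± 332 (SD over cells, n = 58) against 2363 ± 872 (n = 60), or 30.8% of it. WT cells ran from 336 to 1183 with a median of 712 and a mean of 718 ± 284 (n = 16), and their range lay within that of the miR-294-transfected cells. let-7-transfected cells ran from 616 to 4723 with a median of 1876 and a mean of 2074 ± 927 (n = 48), and overlapped the Dgcr8-/- cells over most of their range.

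Dazap2 was the gene that reached the lowest levels. Its normalized count in Dgcr8-/- cells ran from 12.3 to 1576 with a median of 825 and a mean of 849 ± 336 (n = 60). In miR-294-transfected cells it ran from 0 to 449 with a median of 67.8 and a mean of 104 ± 119 (n = 58), 12.2% of the Dgcr8-/- mean. The quartiles of those cells were 11.1 and 151, and summed over the cells Dazap2 took 76.2 CPM (exact Poisson interval 74.5 to 77.9, counting error only). No count was found in 4 of the 58 cells (6.90%, exact binomial interval 1.91% to 16.7%) and in none of the 60 Dgcr8-/- cells (upper bound 5.96%). These binomial limits take cells as independent draws, although the cells of a condition came from 1 circuit. With every cell thinned to 513521 counts, 7 of the 58 and again 0 of the 60 had no count of Dazap2. WT cells ran from 0 to 404 with a median of 139.8 and a mean of 159 ± 116 (n = 16), and 1 of the 16 had no count. let-7-transfected cells ran from 2.53 to 1452 with a median of 519 and a mean of 569 ± 366 (n = 48). That was 67.03% of the Dgcr8-/- mean, where Twf1 in these cells stood at 87.7% and Scpep1 at 95.6%.

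Of the 3 genes Scpep1 had the widest overlap between miR-294-transfected and Dgcr8-/- cells. It ran from 22.6 to 3329 in Dgcr8-/- cells, with a median of 782 and a mean of 941 ± 587 (n = 60). In miR-294-transfected cells it ran from 1.94 to 705 with a median of 201 and a mean of 232 ± 159.7 (n = 58), 24.7% of the Dgcr8-/- mean. All 58 lay below the Dgcr8-/- median, and 25 of the 60 Dgcr8-/- cells lay below the highest miR-294-transfected cell, against 11 for Twf1 and 5 for Dazap2. WT cells ran from 10.8 to 979 with a median of 392 and a mean of 363 ± 282 (n = 16). In let-7-transfected cells the range was 163 to 2034, the median 862 and the mean 900.3 ± 521 (n = 48), and 26 of the 48 cells were above the Dgcr8-/- median.

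**Figure D1:**
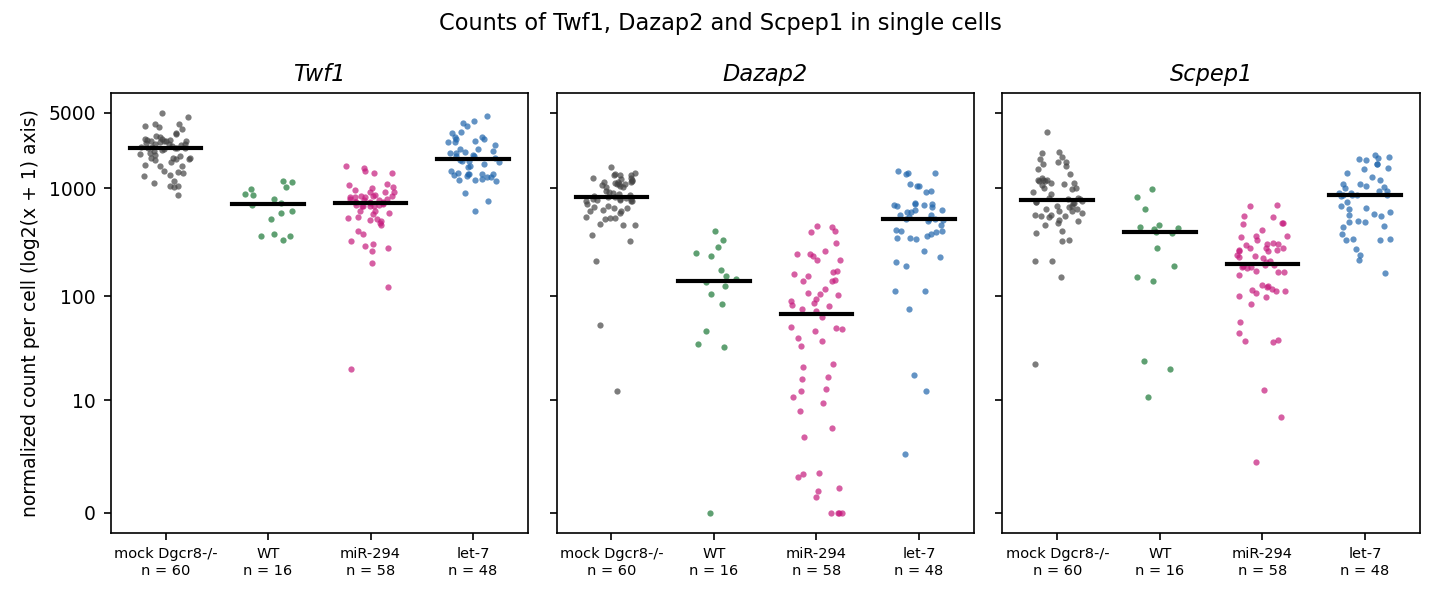
Normalized counts of the 3 genes, 1 point per cell, on a log2(count + 1) axis, by condition; black bars are medians over cells. For each gene all miR-294-transfected cells lie below the median bar of the mock-transfected Dgcr8-/- cells, and for Dazap2 they reach down to 0.

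The order of the conditions by mean was the same for Dazap2 and Scpep1, with Dgcr8-/- cells first, then let-7-transfected, WT and miR-294-transfected cells. For Twf1 the miR-294-transfected and WT cells stood at 729 and 718, far closer than their SDs over cells. For Scpep1 the first and second place, 941 and 900.3, were likewise far closer than their SDs. The WT and miR-294-transfected means of Dazap2 and of Scpep1 were also closer than their SDs. An SD over cells does not measure whether means differ, and the order was not tested. Counts depend on transcript length, so levels between genes were compared in FPKM, which is scaled by length. Median FPKM in Dgcr8-/- cells was 558 for Twf1, 338 for Dazap2 and 276 for Scpep1. After miR-294 it was 188, 30.2 and 83.5, so that Dazap2, the second in Dgcr8-/- cells, was the last of the 3. WT cells had the same order as miR-294-transfected cells (176, 61.6 and 146), and in let-7-transfected cells the values were 392, 187 and 249.7.

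Part of Scpep1 is covered on the other strand by Scpep1os, and part of Twf1 by Irak4, and the libraries do not keep the strand, so reads there cannot be told apart. Of the stretches of 31 bases in all transcripts of each gene, 21.9% for Twf1, 7.63% for Dazap2 and 3.24% for Scpep1 also occur in transcripts of other genes. Mean normalized counts in Dgcr8-/- cells were 94.2 for Irak4 and 3.66 for Scpep1os, and Gm4887, which shares sequence with Twf1, and Gm12855, which shares it with Dazap2, were listed at 0 in every cell. Nrxn2, which also shares sequence with Twf1, was counted in 1 miR-294-transfected and 2 let-7-transfected cells, and Gm47021, which shares it with Dazap2, was not analysed here. Irak4, a kinase of innate immune signalling, was also lower in miR-294-transfected cells (24.6), an amount that is small beside the counts of Twf1.

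The contrasts between conditions are log2 ratios of mean normalized counts, with 1 added to each mean. After miR-294 against Dgcr8-/- cells the ratio was -1.70 for Twf1, -3.02 for Dazap2 and -2.01 for Scpep1. All 3 were past 2-fold lower, which 18.7% of the 11186 genes were, and this is the contrast that chose them. The median of all genes was -0.26, and relative to it the 3 values were -1.43, -2.75 and -1.75. Under other scalings that median moved to -0.12 (TMM) and -0.07 (total counts), while the share of genes lower than each of the 3 changed by less than 1 percentage point. Among the 246 genes whose mean in Dgcr8-/- cells was at least that of Dazap2, Dazap2 had the lowest ratio, Scpep1 was the third and Twf1 the fifth. Those 246 were picked by their mean in the cells that the ratio divides by, and 0 of them were past 2-fold higher. The places belong to the contrast that chose the genes and add nothing independent of it. With near-identical cells counted once the ratios of the 3 genes were -1.69, -3.00 and -2.01. Without the 3 cells titled MIR_294 they were -1.71, -3.00 and -2.01. As a difference of mean log2 counts, which gives cells near 0 more weight, Dazap2 stood at -4.29.

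In WT against Dgcr8-/- cells, which share those control cells, the log2 ratio was -1.72 for Twf1, -2.41 for Dazap2 and -1.37 for Scpep1. All 3 were past 2-fold lower, as were 30.2% of all genes, and the median of all genes was -0.35. Dazap2 stood lower than all but 10.4% of genes, Twf1 than all but 17.9% and Scpep1 than all but 22.9%, so the share of genes this low was larger than after miR-294. These shares depended on genes of low counts, and were 1.44%, 4.997% and 9.58% with a pseudocount of 10 and 4.42%, 9.45% and 13.5% over the genes averaging 50 counts or more. Among the 246 genes as high as Dazap2 in Dgcr8-/- cells the places from the lowest were 22 for Twf1, 7 for Dazap2 and 28 for Scpep1. That set too was picked by the mean in the cells that the ratio divides by, and 0 of it were past 2-fold higher. Without the cell whose runs were unlike, Scpep1 stood at -1.33, and as a ratio of medians at -0.99, just inside 2-fold. In single cells, 11 of 16 WT cells were below the lowest Dgcr8-/- cell in Twf1, 1 in Dazap2 and 2 in Scpep1. For Dazap2 and Scpep1 that lowest cell was the same, at 12.3 and 22.6, where the next lowest cells stood at 53.6 and 151. In pairs of 1 cell from each condition the WT cell was the lower in 98.5% of pairs for Twf1, 96.4% for Dazap2 and 85% for Scpep1.

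In let-7-transfected against Dgcr8-/- cells, again with the same control cells, the ratios were -0.19 for Twf1, -0.58 for Dazap2 and -0.06 for Scpep1. None of the 3 was past 2-fold lower, which 8.56% of all genes were. The median of all genes was 0.18, so that Dazap2 was 0.75 below it. The sign of Scpep1 turned to 0.14 with a ratio of medians. Removal of the let-7-transfected cell whose runs were unlike left the ratios at -0.18, -0.56 and -0.05. With near-identical cells counted once they were -0.19, -0.57 and -0.11. The summed level of the stem cell markers also differed between these conditions, and its part in the ratios was not tested.

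let-7-transfected cells were higher than WT cells in all 3 genes, with log2 ratios of 1.53 for Twf1, 1.83 for Dazap2 and 1.31 for Scpep1. This contrast uses neither group of the contrast that chose the genes. Of all genes 37.4% were past 2-fold higher and their median was 0.52, so many genes had ratios of this size. That share was smaller among genes of higher counts, at 25.98% with a median of 0.267 over the genes averaging 50 counts or more. Of the 246 genes with a Dgcr8-/- mean of at least that of Dazap2, 15.9% were past 2-fold higher with a median of 0.06. In that set the 3 genes had places 214 to 223 counted from the lowest. The 246 were picked by the mean in Dgcr8-/- cells, a group of the contrast that chose the genes. Their share and the places are therefore not independent of that contrast. Relative to the median of all genes, 0.52, the 3 values were 1.01, 1.31 and 0.79. By cells, 44 of 48 let-7-transfected cells were above the highest WT cell in Twf1, 31 in Dazap2 and 17 in Scpep1. Without the 2 cells whose runs were unlike the ratios were 1.54, 1.85 and 1.28. With near-identical cells counted once they were 1.53, 1.83 and 1.26. Between miR-294-transfected and WT cells the ratios were 0.02, -0.61 and -0.64, none past 2-fold lower, where 12.1% of genes were. For Dazap2 that ratio depended on how it was taken, with -1.03 for medians and -1.41 for mean log2 counts. Scpep1 stood at -0.96 and -0.37 by those measures.

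**Figure D2:**
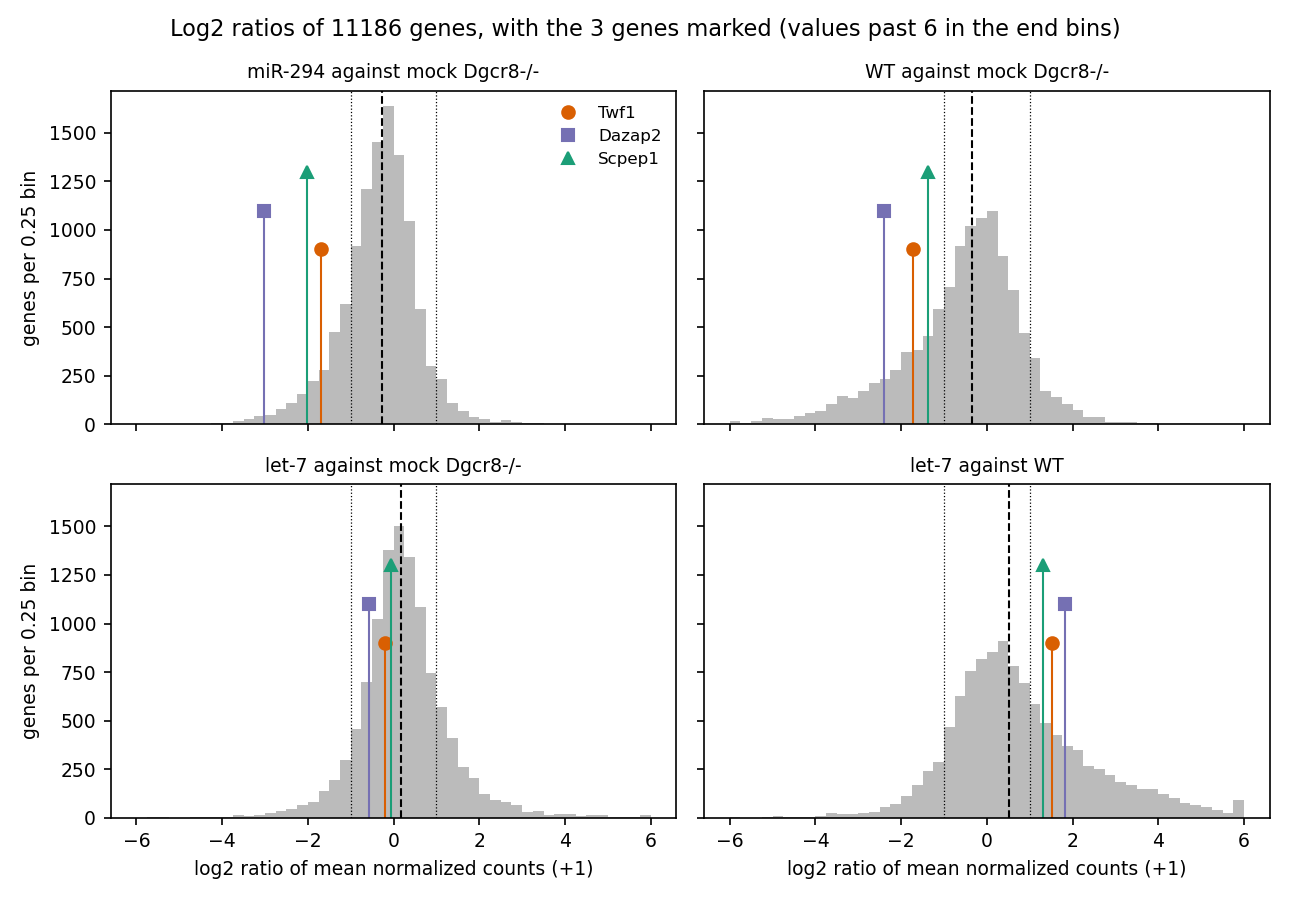
Histograms of the log2 ratio of mean normalized counts (1 added) for 11186 genes in 4 contrasts, with Twf1 (circle), Dazap2 (square) and Scpep1 (triangle) marked; the height of a marker has no meaning. Dashed lines are medians of all genes and dotted lines 2-fold. The 3 genes lie at -3.02 to -1.70 after miR-294 and at -0.58 to -0.06 after let-7.

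All 3 genes were on the list of miR-294 targets that the study took from an earlier bulk experiment, and none was on the let-7 list from there. A seed match in the 3′ UTR was a condition of that list, so the sites printed above are not independent of it. Of the 495 genes on the miR-294 list 492 were tested. After miR-294, 227 of them were past 2-fold lower against Dgcr8-/- cells and 4 higher, or 46.1% and 0.813% (all genes, 18.7% and 4.95%), with a median of -0.93 (all genes, -0.26). Within the list Dazap2 had the 18th lowest ratio, Scpep1 the 65th and Twf1 the 104th, so they were not its strongest members by ratio. In let-7-transfected against WT cells the list had a median of 1.28, with 287 genes (58.3%) past 2-fold higher, where all genes had a median of 0.52 and 37.4%. Genes with a 7mer-m8 and no 8mer, the kind of site the 3 genes hold, had a median of -0.43 after miR-294 (1483 genes, 26.2% past 2-fold lower). The median was -0.67 with an 8mer (392 genes, 34.9%) and -0.21 with no site of 7 bases or more (8136 genes, 16.1%).

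The genes that work beside the 3 were described by lists. Of 40 genes of actin turnover 35 were tested, and 8 were past 2-fold lower after miR-294 and 0 higher, with a median of -0.41. That is 22.9% lower, where 18.7% of all genes were lower and 4.95% higher. Twf2, the paralogue of Twf1, stood at 73.4 ± 80.99 (n = 58) after miR-294 and 66.1 ± 106 (n = 60) in Dgcr8-/- cells, a ratio of 0.15, and its 3′ UTR held no site of 7 bases or more. The actins Actb and Actg1 stood at -0.39 and -0.32, Actr2, a subunit of the filament-branching complex, at -0.77 and the tropomyosin Tpm3 at -0.41. In WT against Dgcr8-/- cells 17 of the 35 (48.6%) were past 2-fold lower and 0 higher, with a median of -0.85, against 30.2% lower and 8.73% higher over all genes. Twf2 was not among them, at -0.25.

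Of 19 lysosomal peptidases 13 were tested, of which 4 (30.8%) were past 2-fold lower after miR-294, beside 18.7% of all genes, and 0 higher, with a median of -0.73. Ctsa, the nearest relative of Scpep1 on the list, stood at -1.16 and Ctsb, a cysteine protease, at -1.07. Both held a 7mer-m8 in the 3′ UTR, and neither was on the target list, which held none of the 13. The aspartic protease Ctsd stood at -0.73, the tripeptidyl peptidase Tpp1 at -0.30 and Ctsl at -0.84. Of these Tpp1 also held a 7mer-m8, and Ctsd and Ctsl held no site of 7 bases or more. In WT cells 7 of the 13 (53.8%) were past 2-fold lower, beside 30.2% of all genes, and Ctsa and Ctsb, at -2.81 and -2.70, lay well below Scpep1 at -1.37. After let-7 none of the 13 was past 2-fold lower, beside 8.56% of all genes, and the median was -0.01. Ctsa and Ctsb were higher after miR-294 than in WT cells, with ratios of 1.65 and 1.64, where Scpep1 was at -0.64.

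Of 7 genes whose products are known to bind Dazap2 or related to it, 6 were tested. After miR-294 only Tcf7l2, a transcription factor of Wnt signalling, was past 2-fold lower, at -1.33, and 0 were higher, with a median of 0.01. In this contrast 18.7% of all genes were lower and 4.95% higher, the background for each list below. Eif4g1, a translation initiation factor, stood at 0.37, the ubiquitin ligase Traf6 at -0.59 and Dazl, an RNA-binding protein of germ cells, at 0.32. Of 16 genes of the silencing machinery 15 were tested, and 2 (13.3%) were past 2-fold lower and 0 higher, with a median of -0.46. These were Ago1 and Tnrc6b, named after their values were seen, and neither was on the target list. Ago2, the slicing Argonaute, stood at -0.15 after miR-294 and at -1.39 after let-7, while Cnot1, a subunit of the deadenylase, was at 0.39 and 0.26. Of 15 genes of mitosis 0 were past 2-fold lower after miR-294 and 1 was higher, with a median of 0.19. The stem cell markers had 0 lower and 1 higher, with a median of 0.13 (Plk1 and Utf1, also named after their values were seen), and none of the 11 fibroblast markers had counts enough to be tested.

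The spread between cells was described by the coefficient of variation (CV, SD over mean). Among Dgcr8-/- cells it was 0.369 for Twf1, 0.396 for Dazap2 and 0.623 for Scpep1. In miR-294-transfected cells it was 0.455, 1.14 and 0.688, so that the CV of Dazap2 was the one that differed most. The CV of all genes is larger at lower counts, and a cubic trend of squared CV on mean, on log scales, was fitted over the genes of each condition. Dazap2 had a CV of 0.644 times the trend at its mean in Dgcr8-/- cells, with 9.12% of genes further below the trend, and in miR-294-transfected cells of 1.09 times the trend, with 58.3% of genes below it. For Twf1 the CV was 0.840 and 0.937 times the trend, and for Scpep1 1.05 and 0.910 times. In WT cells the 3 CVs were 0.395, 0.725 and 0.778, at 0.696, 0.692 and 1.02 times the trend. In let-7-transfected cells they were 0.447, 0.644 and 0.579, at 0.941, 0.865 and 0.917 times.

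**Figure D3:**
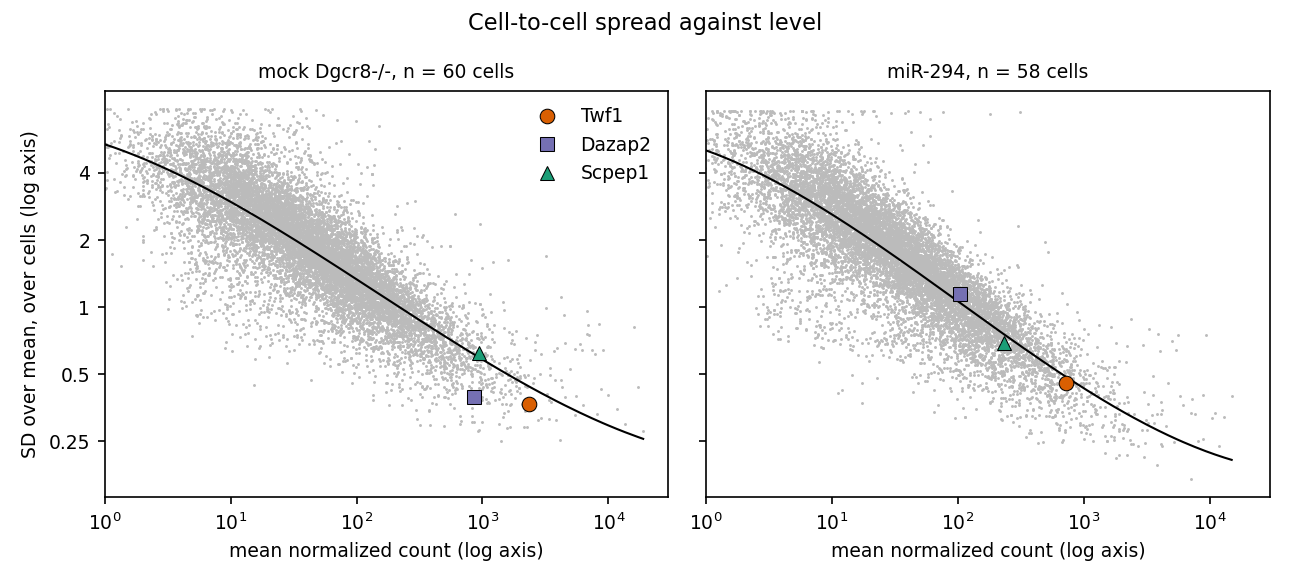
CV over cells against mean normalized count, both on log axes, for tested genes with a mean of 1 or more (grey) in mock-transfected Dgcr8-/- and in miR-294-transfected cells, with the fitted trend as a line. Dazap2 lies below the trend in Dgcr8-/- cells, at 0.644 times it, and near it after miR-294, at 1.09 times.

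The error of sequencing alone was read from cells sequenced in more than 1 run. The 48 cells with 2 like runs were pooled over all conditions. In them the SD between runs on the log2(CPM + 1) scale was 0.0841 for Twf1, 0.184 for Scpep1 and 0.320 for Dazap2. The largest difference between the runs of a cell was 0.469, 1.43 and 2.57. Run error was not separated by condition, so it is not known for the lower counts of miR-294-transfected cells alone. The 2 cells with unlike runs described above are not in these figures. Between Dgcr8-/- cells the SD on that scale was 0.554, 1.08 and 1.07, and between miR-294-transfected cells 0.958, 1.46 and 2.55. The runs repeat the sequencing and not the capture or the amplification, so these figures do not contain the error of those steps.

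Cells with low levels of the 3 genes were counted first. In no miR-294-transfected cell was any of the 3 above the Dgcr8-/- median. In 56 of the 58 all 3 were at or below the lower quartile of the Dgcr8-/- cells (1817, 627 and 561 normalized counts for Twf1, Dazap2 and Scpep1), and in the other 2 only Scpep1 was above it. In WT cells all 3 were at or below it in 13 of 16, in let-7-transfected cells in 6 of 48 and in Dgcr8-/- cells in 1 of 60. After miR-294 no cell was above that quartile in Twf1 or Dazap2, and 2 were in Scpep1. The joint count of 56 follows from those single counts, so it cannot show whether the genes were low together. The thresholds also come from the Dgcr8-/- cells, a group of the contrast that chose the genes. Against the lowest Dgcr8-/- cell, 14 miR-294-transfected cells were above it in Twf1, 43 in Dazap2 and 55 in Scpep1. All 3 genes were above it in 11 cells, 2 in 33, 1 in 13 and none in 1. That lowest cell is the same for Dazap2 and Scpep1, at 12.3 and 22.6, while its Twf1 count of 1914 was ordinary.

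Within a condition the 3 genes were at most weakly correlated over cells. In miR-294-transfected cells (n = 58) Spearman's rho was 0.26 for Twf1 and Dazap2, 0.18 for Twf1 and Scpep1 and -0.08 for Dazap2 and Scpep1. Over all pairs of tested genes in those cells the median was 0.02, and the 5th and 95th percentiles were -0.21 and 0.24. In Dgcr8-/- cells (n = 60), without a mimic, the 3 values were 0.24, 0.00 and 0.18, in let-7-transfected cells (n = 48) -0.07, 0.17 and 0.09, and in WT cells (n = 16) -0.14, -0.17 and 0.02. Of these 12 values only that of Twf1 and Dazap2 after miR-294 lay past the 95th percentile of its condition, and Twf1 and Dazap2 stood nearly as high in Dgcr8-/- cells. The values share cells, size factors and a library of 1 circuit, and correlations this weak in such counts are not a finding. Pearson's r of log2 counts was 0.51 for Dazap2 and Scpep1 in Dgcr8-/- cells and 0.15 without the cell lowest in both.

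**Figure D4:**
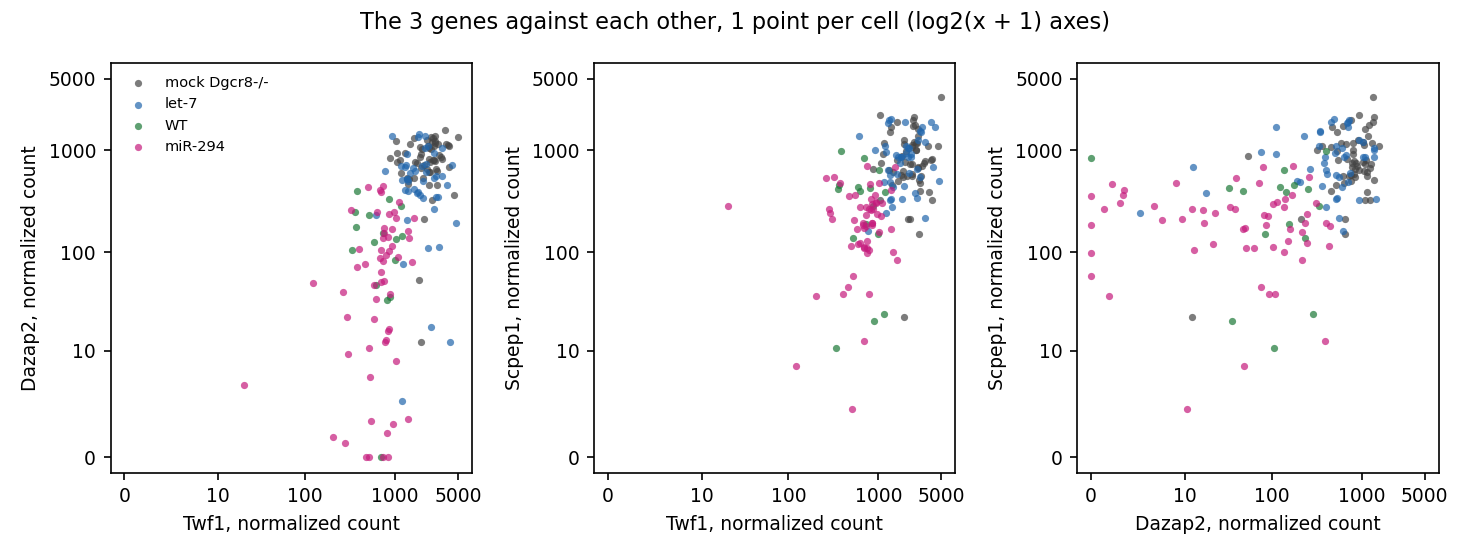
Normalized counts of the 3 genes against each other, 1 point per cell, on log2(count + 1) axes, in the 4 conditions. Dgcr8-/- and let-7-transfected cells lie toward higher values than WT and miR-294-transfected cells, with some overlap, and within a colour the points show little slope.

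**Figure D5:**
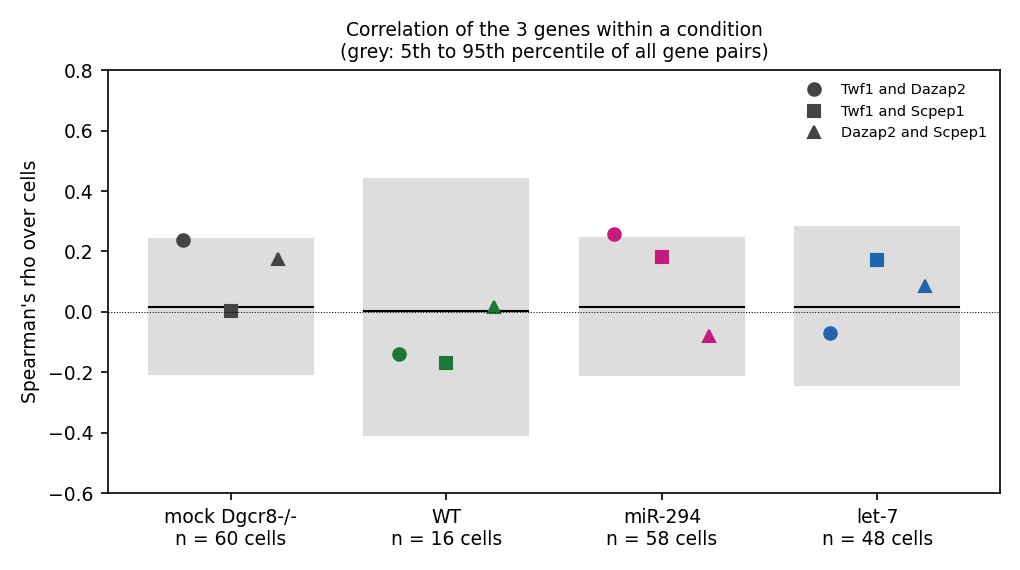
Spearman's rho over the cells of a condition for the 3 pairs of genes (symbols), with the 5th to 95th percentile (grey) and the median (line) over all pairs of tested genes. In miR-294-transfected cells the 3 values are 0.26, 0.18 and -0.08 beside a grey range of -0.21 to 0.24.

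The cells at the ends of the ranges differed in whether the 3 genes went together. The miR-294-transfected cell with the lowest Twf1, 20.3, also had little Dazap2, 4.07, but a Scpep1 count of 282, higher than in 70.7% of the cells of its condition. The cell with the lowest Scpep1, 1.94, had Twf1 at 513 and Dazap2 at 10.7. The cell with the highest Twf1, 1610.1, had Dazap2 at 216 and Scpep1 at only 84.3. Among Dgcr8-/- cells the highest Twf1 and the highest Scpep1, 4939 and 3329, were in the same cell, with Dazap2 at 1345, higher than in 93.3% of the cells, and the lowest Dazap2 and Scpep1 were also in 1 cell.

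The levels were also set beside measures of the whole cell in miR-294-transfected cells. Spearman's rho with the total count was -0.10 for Twf1, 0.00 for Dazap2 and -0.31 for Scpep1, and with the number of genes counted 0.05, -0.10 and -0.20. With the mean log2 level of the other 489 listed targets it was 0.19, 0.16 and -0.02, and with that of the mitosis list 0.25, 0.13 and 0.02. With Ago2 it was 0.17, -0.04 and 0.07. The value farthest from 0 among these 15 was that of Scpep1 with the total count.

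Over the cells of all conditions the 3 genes were among each other's first 3 by rho, a measure that then contains the differences between conditions by which they were chosen. Among the 7642 genes counted in 50% of the cells or more, Dazap2 was the first for Twf1 (rho 0.64), followed by Sptbn1, a spectrin (0.59), and Scpep1 (0.59). For Dazap2 the first were Twf1 (0.64), Scpep1 (0.59) and 4933434E20Rik (0.55), and for Scpep1 they were Dazap2 (0.59), Twf1 (0.59) and 4933434E20Rik (0.56), the latter also a listed target. Within a condition this order was not kept. In miR-294-transfected cells Dazap2 was the 339th gene for Twf1, and the first 3 were Bora (0.50), Nsd1 (0.50) and Slc44a1 (0.47). For Dazap2 they were Npat (0.49), Rtca (0.46) and Wdr62 (0.45), with Scpep1 at place 5469, and for Scpep1 Thoc3 (0.43), Wapl (0.42) and Mcm7 (0.41). In Dgcr8-/- cells they were Paip1 (0.59), Cbx3 (0.57) and St13 (0.56) for Twf1, Ndufs7 (0.50), Rpl7l1 (0.50) and Ppp2r5c (0.49) for Dazap2, and Ift43 (0.54), Ino80c (0.53) and Elovl7 (0.51) for Scpep1. No gene was among the first 3 of a member in both conditions, and none of these genes was on the miR-294 list. Within a condition the named genes were the highest of 7642 over only 58 or 60 cells. How high such a maximum would be without any correlation was not tested, so these genes are not a finding.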

How the data were processed

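Single-cell RNA-seq in 232 runs was analysed. The authors assigned reads to genes with RSEM (version 1.2.19 in the submitters' processing notes) and Gencode M4, and deposited for each run an expected count per gene, which is not normalized, and an FPKM, scaled by length and depth. Nextera XT does not mark the strand. Here the expected counts were added up over all runs of each cell, then rounded, and 11186 genes averaging 5 or more were kept (the genes tested). Counts were normalized by DESeq size factors (862 genes with a count in each cell), with 1 added before log2. FPKM was averaged over runs with weights by total count. Totals of 513521 to 3979274 per cell set the precision, and reads without molecular identifiers make the Poisson intervals (95%, exact) cover counting error only. The binomial intervals (95%, exact) take the cells of 1 circuit as independent draws.

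A condition was 1 sample, so no test was made, and a gene was counted when past 2-fold. The members and gene lists were chosen with earlier results of these data known. Named genes of a list were at most 4 of highest mean count, besides Twf2 and Ctsa, and genes most alike were the 3 with the highest rho. Sites were read from Gencode M21 transcripts on GRCm38, and 41674 of 42493 gene IDs matched a symbol. Alternatives were TMM factors (edgeR 4.0.16, R 4.3.3), total counts, medians, mean log2, a pseudocount of 10, first runs, thinned counts, other filters, and leaving out doubted cells, of which the 2 cells with unlike runs and the Dgcr8-/- cell lowest in Dazap2 and Scpep1 were chosen after seeing the data. Python 3.11.15, numpy 2.4.6, pandas 2.3.3 and scipy 1.17.1 were used, and the scripts were tested on simulated data.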

Additional observations from a re-analysis of the deposited data

How the results depend on the processing

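The 15 ratios of the 3 genes were recomputed in 150 alternatives, of which 148 moved a ratio by less than 1.5-fold and none turned the direction of one past 2-fold. The exceptions were both of Dazap2 as a difference of mean log2 counts, -4.29 for miR-294-transfected against Dgcr8-/- cells and -1.41 for miR-294-transfected against WT cells. After miR-294 the ratio ranged from -1.81 to -1.51 for Twf1, from -4.29 to -2.84 for Dazap2 and from -2.19 to -1.81 for Scpep1. In miR-294-transfected cells rho stayed at 0.24 to 0.28 for Twf1 and Dazap2, 0.13 to 0.22 for Twf1 and Scpep1 and -0.14 to -0.04 for Dazap2 and Scpep1. In the other conditions 9 of the alternatives moved a rho by 0.1 or more, 5 of them in the 16 WT cells. The CV of Dazap2 after miR-294 ranged from 1.14 to 1.15 and that of Scpep1 in Dgcr8-/- cells from 0.541 to 0.646.

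The count of genes past 2-fold depended on the filter and the pseudocount, by construction. With a mean count of at least 50 it was 612 lower after miR-294 and 1105 in WT cells against Dgcr8-/- cells, 315 lower after let-7 against Dgcr8-/- cells, 1388 higher after let-7 against WT cells and 384 lower after miR-294 against WT cells, and 72 higher after miR-294 and 246 higher in WT cells, both against Dgcr8-/- cells. With a pseudocount of 10 it was 1000 lower after miR-294, 1992 in WT cells, 479 after let-7 against Dgcr8-/- cells and 758 after miR-294 against WT cells, and 132 higher after miR-294 and 547 higher in WT cells against Dgcr8-/- cells. With every counted gene kept it was 1157 higher after miR-294 and 1553 higher in WT cells against Dgcr8-/- cells, 1632 lower after let-7 against Dgcr8-/- cells and 6320 higher after let-7 against WT cells. With a pseudocount of 10, TMM factors or total counts the 3 genes stayed past 2-fold lower after miR-294 and in WT cells, and higher after let-7 against WT cells. Counts near 0 of Dazap2 and a single circuit per condition limit the values.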
